A study of Mus musculus with 6 samples.

Results

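The 6 receptors described here are Cxcr4, Cxcr5, Ccr7, Ccr9, Ccr2 and S1pr1, G-protein-coupled receptors that guide blood cells to, within and out of lymphoid tissue. They were chosen by name, and each matched 1 RefSeq transcript among 22098 gene symbols. All 6 of 6 had a mean of at least 1 RPKM (read number scaled to transcript length and to the size of the library) over the libraries, as did 10943 genes in all. RNA sequencing was done on proB cells, the earliest committed B-cell precursors, sorted from the bone marrow of C57BL/6 mice aged 6 to 7 weeks. The genotypes were Ikaros_ZnF4-/-, Ikaros_ZnF1-/- and wt, called ZnF4, ZnF1 and wt below, which carry a mutation of zinc finger 4 of Ikaros, a mutation of zinc finger 1, or neither. Each genotype was sorted into a pool of Hardy fractions C and C', called fraction C, and into the earlier Hardy fraction B, with 1 library for each combination and so 6 libraries in all. The labels do not say how the fingers were removed, or how many animals went into a library.

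Ikaros is a transcription factor of lymphoid cells whose amino-terminal zinc fingers, ZnF1 and ZnF4 among them, bind DNA around the core letters GGGAA. Cxcr4 is the receptor of Cxcl12, a chemokine of marrow stroma, and holds B-cell precursors in the marrow. Cxcr5 reads Cxcl13 and draws mature B cells into follicles, while Ccr7 reads Ccl19 and Ccl21 and draws lymphocytes to T zones. Ccr9 reads Ccl25 of the thymus and small intestine and is also found on plasmacytoid dendritic cells, and Ccr2 reads Ccl2 and is the receptor with which monocytes leave the marrow. S1pr1 binds sphingosine-1-phosphate and drives exit of lymphocytes into blood.

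Several features of the libraries bear on the values that follow. Summed RPKM of 16 B-lineage markers was 5507.4 and 6149.2 in fractions C and B of ZnF4, 2582.2 and 5361.4 in ZnF1 and 3366.7 and 4003.1 in wt, so all libraries held B-lineage RNA. Granulocyte and monocyte markers, 21 genes of which none was at 0 in any library, summed to 44118.8 RPKM in the ZnF1 library of fraction C, against 1045.8 to 3919.8 RPKM in the other 5 libraries. Erythroid markers summed to 4641.9 RPKM in that same library and to between 180.2 and 410.8 RPKM in the other 5. The gene of Ikaros itself, Ikzf1, stood at 425.1 and 431.6 RPKM in fractions C and B of ZnF4, at 154.1 and 181.5 RPKM in ZnF1 and at 169.4 and 150.3 RPKM in wt. A transcript total does not show whether a single finger is missing, so it checks no label. Xist was listed at 0 in all 4 mutant libraries, against 91.9 and 81.3 RPKM in fractions C and B of wt, and Eif2s3y of the Y chromosome was at 34.4 to 55.1 RPKM in the mutant libraries and at 0 in wt. Sex and genotype therefore cannot be told apart in any comparison of a mutant with wt. The 6 receptor genes lie on autosomes: Cxcr4 on chromosome 1, S1pr1 on 3, Cxcr5, Ccr9 and Ccr2 on 9 and Ccr7 on 11.

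Promoter sequence was at hand in RefSeq tables (GRCm38.p6) for 3 of the 6 receptors: Cxcr4, the receptor highest in ZnF4, and Ccr9 and Ccr2, both lower in ZnF4 than in wt. The 250 bases before each start site are printed 5′ to 3′ on the gene's strand, from chr1:128592300-128592549 (minus strand) for Cxcr4, chr9:123766961-123767210 (plus strand) for Ccr9 and chr9:124101933-124102182 (plus strand) for Ccr2, with the Ikaros core GGGAA, or TTCCC on the other strand, in capitals.
Cxcr4: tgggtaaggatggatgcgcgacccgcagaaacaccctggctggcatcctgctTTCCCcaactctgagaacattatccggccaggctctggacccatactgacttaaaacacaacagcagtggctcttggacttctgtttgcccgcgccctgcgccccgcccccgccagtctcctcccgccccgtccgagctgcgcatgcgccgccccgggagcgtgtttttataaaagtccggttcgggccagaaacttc
Ccr9: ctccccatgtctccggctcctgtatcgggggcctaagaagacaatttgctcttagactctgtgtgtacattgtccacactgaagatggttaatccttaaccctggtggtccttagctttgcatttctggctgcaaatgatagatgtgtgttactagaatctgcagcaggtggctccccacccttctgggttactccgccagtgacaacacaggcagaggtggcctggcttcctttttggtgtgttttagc
Ccr2: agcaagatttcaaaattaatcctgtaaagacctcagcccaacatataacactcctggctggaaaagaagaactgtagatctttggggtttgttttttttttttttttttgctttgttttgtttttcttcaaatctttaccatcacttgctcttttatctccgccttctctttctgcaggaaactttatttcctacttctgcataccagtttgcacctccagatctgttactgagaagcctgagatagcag
The core stood once in the Cxcr4 window, as TTCCC at position -198 from the start site, and 0 times in the windows of Ccr9 and Ccr2. On either strand, 56.2% of 32851 windows of the same length held GGGAA. The longer form TGGGAA, which contains the core, was in none of the 3 windows (0 matches each), against 21.6% of all windows. A match is a description of letters and shows no binding, and no match says only that these letters are not in the window.

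Levels of the receptors were far apart. Cxcr4 was at 201.9 to 408.5 RPKM in every library and made up 91.4% and 89.3% of the summed RPKM of the 6 receptors in fractions C and B of ZnF4, 72.3% and 77.1% in ZnF1 and 82.1% and 82.2% in wt. Ranked among the 10943 genes, it stood 48th and 38th in fractions C and B of ZnF4, 117th and 115th in ZnF1 and 119th and 62nd in wt. Ccr7 and S1pr1 lay between 7.9 and 28.3 RPKM. Cxcr5 ranged between 0.9 and 8.2 RPKM, Ccr9 between 0.1 and 5.5 RPKM and Ccr2 between 0.5 and 49.3 RPKM, the last value above every value of Ccr7 and S1pr1. In wt the order by mean was Cxcr4, Ccr7, S1pr1, Cxcr5, Ccr2 and Ccr9, in which only Cxcr4 stood clear of its neighbour, since the ranges over the 2 fractions of all other neighbours overlapped. In ZnF4 the order was Cxcr4, Ccr7, S1pr1, Cxcr5, Ccr2 and Ccr9, with overlap of Ccr7 and S1pr1 and of Cxcr5 and Ccr2, while Ccr9 lay below Ccr2. In ZnF1 it was Cxcr4, Ccr2, Ccr7, S1pr1, Ccr9 and Cxcr5, where Cxcr4 and Ccr2 did not overlap, nor S1pr1 and Ccr9, while the other neighbours did. Ccr2 took the second place there through the library of fraction C, with 15.2% of its receptor sum.

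**Figure D1:**
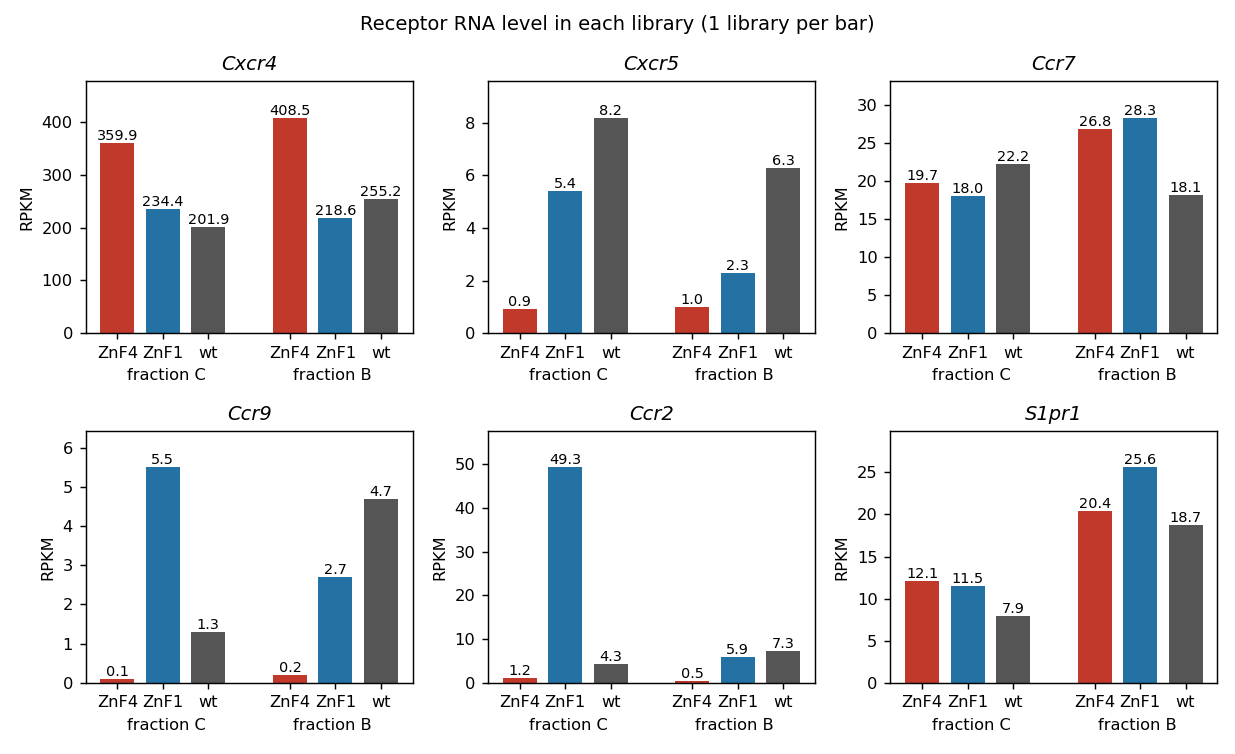
RPKM of the 6 receptors (1 panel each, own linear axis from 0) in fraction C (left) and fraction B (right), with a bar per library for ZnF4, ZnF1 and wt; there are no error bars because each bar is 1 library. As deposited, Cxcr4 is highest in the ZnF4 libraries (359.9 and 408.5 RPKM), Cxcr5, Ccr9 and Ccr2 are lowest there, and the Ccr2 bar of ZnF1 fraction C (49.3 RPKM) stands alone.

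Cxcr4, the marrow retention receptor, was higher in both ZnF4 libraries than in any other, in RPKM as deposited. It had 359.9 and 408.5 RPKM in fractions C and B of ZnF4, 234.4 and 218.6 RPKM in ZnF1 and 201.9 and 255.2 RPKM in wt. The ZnF4 values as deposited did not overlap those of ZnF1 or wt, and the ZnF1 values lay within the range of wt. Scaled to the B-lineage markers, Cxcr4 of ZnF4 was no longer above that of ZnF1 in fraction C (log2 difference -0.15), while it was above wt by 0.62 in fraction C and 0.85 in fraction B. On the log2(RPKM + 1) scale, which is used for all differences here and understates those of low genes, ZnF4 was 1.78-fold above wt in fraction C (0.83) and 1.60-fold above in fraction B (0.68). A smaller difference was found in 94.9% of all genes in fraction C and in 92.1% in fraction B. ZnF1 differed from wt by 0.21 in fraction C and by -0.22 in fraction B, with no common direction, and the first of these came to 0.77 under that scaling.

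Cxcr5, the follicle receptor, was lowest in ZnF4. It had 0.9 and 1.0 RPKM in fractions C and B of ZnF4, 5.4 and 2.3 RPKM in ZnF1 and 8.2 and 6.3 RPKM in wt. No ranges of the 3 genotypes overlapped, and ZnF1 lay between ZnF4 and wt in both fractions. ZnF4 was 4.84-fold below wt in fraction C (-2.28) and 3.65-fold below in fraction B (-1.87), and ZnF1 was 1.44-fold and 2.21-fold below wt in fractions C and B (-0.52 and -1.15), the first of which came to -0.04 when scaled to the B-lineage markers. The sum of 13 markers of mature B cells, the cells best known for Cxcr5, did not go the same way. It was 1399.3 and 1944.1 RPKM in fractions C and B of ZnF4, 871.1 and 950.0 RPKM in ZnF1 and 543.1 and 782.7 RPKM in wt. Its largest parts in ZnF4 were Cd74, with 473.1 and 692.8 RPKM, and Cd37, with 454.6 and 622.5 RPKM. Of the 12 that passed the expression filter, 8 were 2-fold or more above wt in both fractions of ZnF4, beside 2.59% of all genes. As far below it were 0 of 12, beside 4.73%. By any amount, 10 of 12 were above wt in each fraction. Fcer2a, at 0.5 and 0.5 RPKM in ZnF4, and Cd86, at 0.2 and 0.4 RPKM, were below it. The part of mature B cells in the Cxcr5 values was not tested.

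Ccr7, the T-zone receptor, showed no separation of genotypes. It had 19.7 and 26.8 RPKM in fractions C and B of ZnF4, 18 and 28.3 RPKM in ZnF1 and 22.2 and 18.1 RPKM in wt. In fraction C the difference from wt was -0.16 in ZnF4 and -0.29 in ZnF1, the second turning to 0.25 when scaled to the B-lineage markers, and in fraction B it was 0.54 in ZnF4 and 0.62 in ZnF1. The ranges of all 3 genotypes overlapped.

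Ccr9, the gut and thymus homing receptor, was close to 0 in ZnF4. It had 0.1 and 0.2 RPKM in fractions C and B of ZnF4, 5.5 and 2.7 RPKM in ZnF1 and 1.3 and 4.7 RPKM in wt. The ZnF4 values lay below all others, whereas ZnF1 and wt overlapped. ZnF4 was 2.09-fold below wt in fraction C (-1.06) and 4.75-fold below in fraction B (-2.25), and ZnF1 was 2.83-fold above wt in fraction C (1.5) and 1.54-fold below in fraction B (-0.62). In these sorted pools fewer cells of a type and less RNA per cell cannot be told apart, which holds for each receptor here. Siglech, a defining marker of plasmacytoid dendritic cells, was at 0.1 and 0.1 RPKM in fractions C and B of ZnF4, 33.0 and 20.2 RPKM in ZnF1 and 7.5 and 24.2 RPKM in wt, the same order of genotypes as Ccr9 in both fractions. The 15 markers of that cell type summed to 336.2 and 514.7 RPKM in ZnF4, 572.4 and 660.5 RPKM in ZnF1 and 256.5 and 549.2 RPKM in wt, and in ZnF4 Klk1 was at 0 in both fractions, Cd209d in fraction C and Pacsin1 in fraction B. Of the 14 that passed the filter, 5 were 2-fold or more below wt in both fractions of ZnF4, beside 4.73% of all genes. To that extent 1 was above it, Tlr9, beside 2.59%, with 24.5 and 45.0 RPKM in fractions C and B of ZnF4 and 5.2 and 11.8 RPKM in wt. By any amount, 4 of 14 were above wt in fraction C and 3 of 14 in fraction B, Irf8 and Ly6d among them in both fractions. The part of these cells in the Ccr9 values was not tested.

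Ccr2, the monocyte receptor, was low in ZnF4 and highest by far in 1 library. It had 1.2 and 0.5 RPKM in fractions C and B of ZnF4, 49.3 and 5.9 RPKM in ZnF1 and 4.3 and 7.3 RPKM in wt. The ZnF4 values lay below all others, and the 49.3 RPKM came from the library with the granulocyte and monocyte sum of 44118.8 RPKM. ZnF4 was 2.41-fold below wt in fraction C (-1.27) and 5.53-fold below in fraction B (-2.47). ZnF1 was 9.49-fold above wt in fraction C (3.25) and 1.20-fold below in fraction B (-0.27). The granulocyte and monocyte sum was 1808.8 and 1045.8 RPKM in fractions C and B of ZnF4, 44118.8 and 1711.2 RPKM in ZnF1 and 2759.5 and 3919.8 RPKM in wt. It too was below wt in both ZnF4 libraries. In fraction B of ZnF1 the sum lay below that of ZnF4 fraction C, while Ccr2 was at 5.9 RPKM against 1.2 RPKM. The largest part of the sum was S100a9, with 648.9 RPKM against 684.3 RPKM in these libraries. Other members went the other way, such as Csf1r with 3.4 RPKM against 1.5 RPKM. Within fraction B, 0 of 21 members were higher in ZnF4 than in ZnF1. In ZnF1 the list was above wt in fraction C for 21 of 21 members (median 3.74), and its median was -0.92 in fraction B. Markers of natural killer cells summed to 9.9 and 2.6 RPKM in fractions C and B of ZnF4, 128.4 and 67.5 RPKM in ZnF1 and 56.6 and 109.7 RPKM in wt. Of the 10 that passed the filter, 9 were at least 2-fold below wt in both fractions of ZnF4, beside 4.73% of all genes. The filter is a mean over all 6 libraries, and genes near 0 in ZnF4 passed it through ZnF1 and wt. That share is thus partly fixed by the filter and carries no test. In fraction B of ZnF4, 11 of the 14 natural killer markers were at 0, Ncr1, Gzma and Ccl5 among them, and in fraction C 4 of 14. T-lineage markers, 15 genes, summed to 85.7 and 58.7 RPKM in fractions C and B of ZnF4, 110.6 and 64 RPKM in ZnF1 and 113.6 and 104 RPKM in wt. Among the 10 of these past the filter, 2 were at least 2-fold below wt in both fractions of ZnF4 and 0 as far above, beside 4.73% and 2.59% of all genes. The part of any of these cells in the Ccr2 values was not tested. How reads shared by related genes were counted is not stated in the labels or the table.

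**Figure D2:**
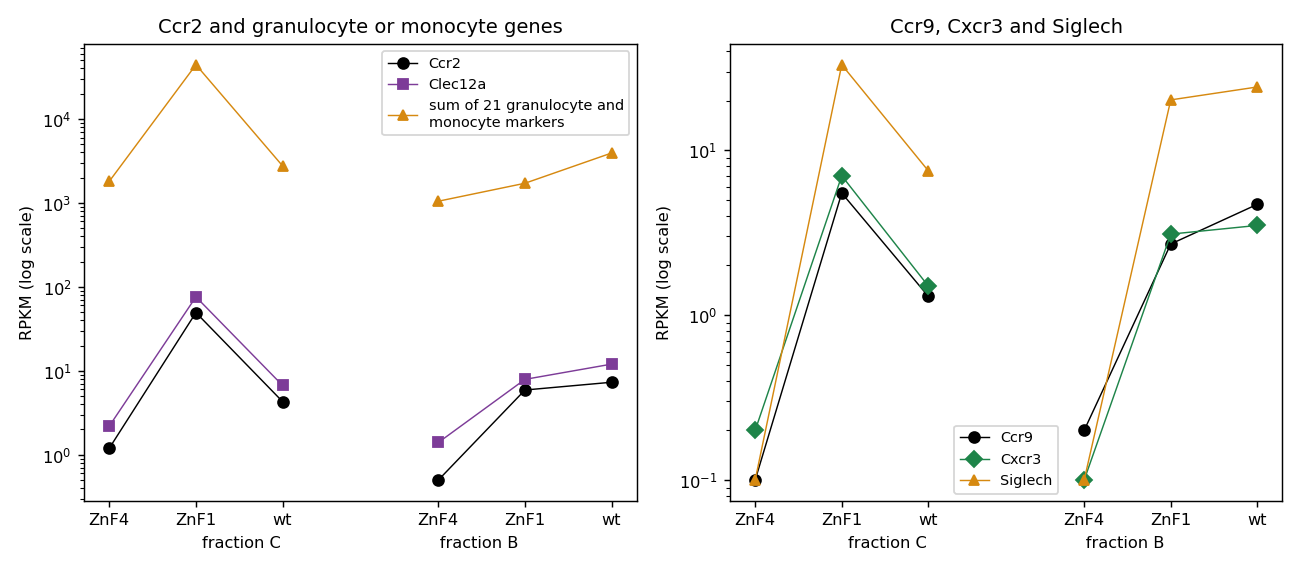
RPKM on a log axis across the 6 libraries, with Ccr2, Clec12a and the sum of 21 granulocyte and monocyte markers on the left and Ccr9, Cxcr3 and Siglech on the right. The 3 lines on the left peak in the ZnF1 library of fraction C (Ccr2 at 49.3 RPKM), and the 3 lines on the right are at 0.1 or 0.2 RPKM in both ZnF4 libraries.

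S1pr1, the exit receptor, was lower in fraction C than in fraction B in each genotype. It had 12.1 and 20.4 RPKM in fractions C and B of ZnF4, 11.5 and 25.6 RPKM in ZnF1 and 7.9 and 18.7 RPKM in wt. Every fraction C value lay below every fraction B value, and the genotypes overlapped. Fraction C was 1.63-fold below fraction B in ZnF4 (-0.71), 2.13-fold below in ZnF1 (-1.09) and 2.21-fold below in wt (-1.15), and scaling to the B-lineage markers brought the ZnF1 value to -0.26. A lower difference was found for 1.96% of genes in ZnF4, 2.80% in ZnF1 and 0.603% in wt. ZnF4 was above wt by 0.56 in fraction C and 0.12 in fraction B, and ZnF1 by 0.49 and 0.43.

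For ZnF4 against wt, 3 of the 6 receptors (Cxcr5, Ccr9 and Ccr2) were at least 2-fold lower in both fractions, beside 4.73% of all genes. None, 0 of 6, was at least 2-fold higher in both, beside 2.59% of all genes. Each pair is 1 library against 1, so these counts carry no test. For a test, all 6 libraries were fitted together in limma with genotype and fraction as additive terms. With 1 library per group, its spread has 2 residual degrees of freedom, which come from genotype differences that vary between the fractions. In that fit 0 of 6 receptors passed an adjusted p of 0.05, beside 0.0274% of genes (3 of 10943), and 3 of 6 receptors and 1930 of 10943 genes had an unadjusted p under 0.05. Cxcr5 came to -2.07 with a standard error of 0.32 (limma, adjusted p = 0.117), Cxcr4 to 0.75 with 0.24 (adjusted p = 0.233), Ccr9 to -1.66 with 0.56 (adjusted p = 0.249) and Ccr2 to -1.87 with 0.87 (adjusted p = 0.351). S1pr1 came to 0.34 (limma, adjusted p = 0.426) and Ccr7 to 0.19 (adjusted p = 0.739).

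The 2 ZnF1 libraries, although no part of that contrast, decided these calls through the shared spread. When the ZnF1 library of fraction C was left out, the one with the granulocyte and erythroid RNA, 4 of 6 receptors passed, beside 31.6% of all genes. Their log2 differences stayed as given, with standard errors of 0.19 for Cxcr5 (limma, adjusted p = 0.00605), 0.12 for Cxcr4 (adjusted p = 0.0146), 0.32 for Ccr2 (adjusted p = 0.0175) and 0.33 for Ccr9 (adjusted p = 0.025). The receptors' share is to be set against that of all genes, nothing particular to them being shown. Without the ZnF1 library of fraction B 4 of 6 passed as well (limma, adjusted p = 0.00708 to 0.0261), beside 30.8% of genes, and with the 4 libraries of ZnF4 and wt alone again 4 of 6, beside 31.9%. In the fits that leave out a ZnF1 library, the other one is assumed to vary like the rest. That other library is fitted exactly, so these fits and that of the 4 libraries alone rest on the same spread. They gave the same log2 estimates and are 1 check, not separate ones. Each had fewer residual degrees of freedom than the 2 of the 6-library fit. Without any 1 of the ZnF4 or wt libraries 0 of 6 passed, and estimates moved with the wt library left out: Ccr2 came to -0.69 without wt fraction B and -3.05 without wt fraction C. Ccr9 came to -0.83 without wt fraction B and -2.48 without wt fraction C, and Ccr7, at 0.19 with all libraries, to -0.21 and 0.59.

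For ZnF1 against wt, 0 of 6 receptors were at least 2-fold higher in both fractions, beside 0.758% of all genes, and 0 of 6 at least 2-fold lower, beside 0.804%. The limma fit of 6 libraries passed 0 of 6 (0 of 6 also at an unadjusted p under 0.05, which 1018 of 10943 genes reached), beside 0.0274% of genes. Ccr2 had the largest estimate, 1.49 with a standard error of 0.87 (limma, adjusted p = 0.558), followed by Cxcr5 with -0.83 and 0.32 (adjusted p = 0.525) and S1pr1 with 0.46 and 0.19 (adjusted p = 0.527). Ccr2 passed when the ZnF1 library of fraction B was left out (2.95, adjusted p = 0.0111 by limma), which leaves the ZnF1 library of fraction C as the only one of its genotype, and 37.6% of genes passed with it. The estimate of Ccr2 was 0.03 once the ZnF1 library of fraction C was dropped.

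**Figure D3:**
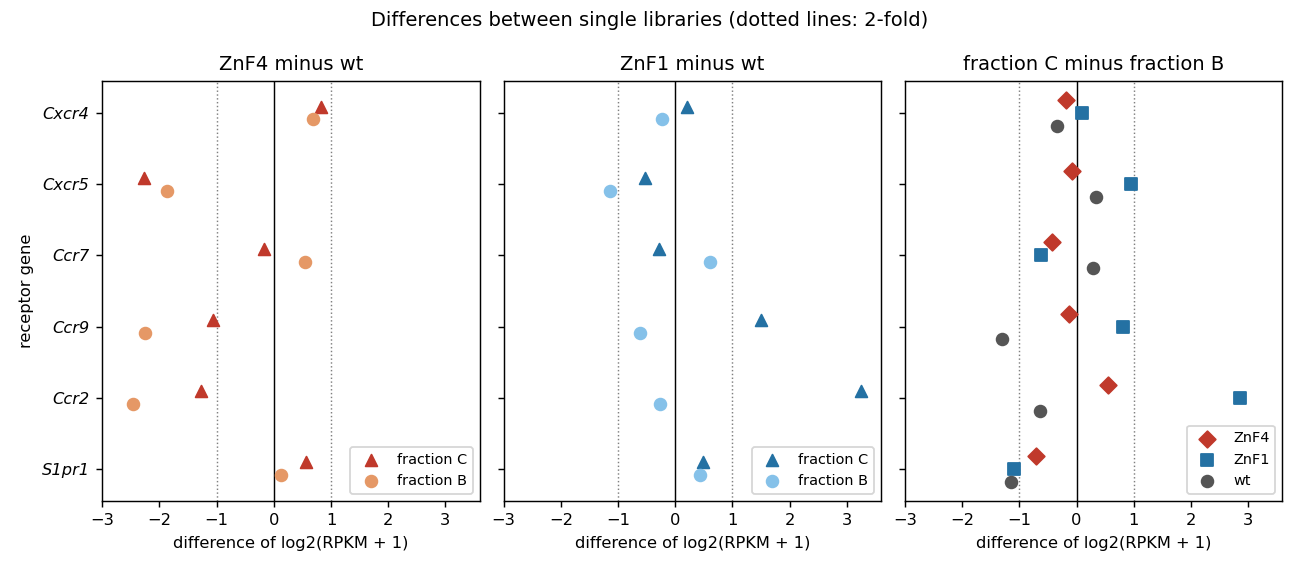
Differences in log2(RPKM + 1) of the 6 receptors, for ZnF4 minus wt, ZnF1 minus wt and fraction C minus fraction B, with 1 point per pair of libraries and dotted lines at 2-fold. Cxcr5, Ccr9 and Ccr2 lie beyond the lower line in both fractions for ZnF4 minus wt, and S1pr1 lies below 0 in all 3 genotypes for fraction C minus fraction B.

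Between the mutants, ZnF4 against ZnF1, Ccr9 and Ccr2 were at least 2-fold lower in both fractions, 2 of 6 receptors beside 5.45% of all genes, and 0 of 6 were at least 2-fold higher, beside 3.11%. Ccr9 was 5.91-fold and 3.08-fold lower in fractions C and B, and Ccr2 22.9-fold and 4.60-fold lower. Cxcr5 was 3.37-fold and 1.65-fold lower, and Cxcr4 was 1.53-fold and 1.86-fold higher. Ccr7 differed by 0.12 and -0.08 and S1pr1 by 0.07 and -0.31. None of these reached an adjusted p of 0.05 in the 6-library fit (0 of 6, beside 1.82% of genes), although 4 of 6 receptors and 2489 of 10943 genes had an unadjusted p under 0.05. The limma estimates were -3.36 with a standard error of 0.87 for Ccr2 (adjusted p = 0.126), -1.24 with 0.32 for Cxcr5 (adjusted p = 0.129), -2.09 with 0.56 for Ccr9 (adjusted p = 0.134) and 0.76 with 0.24 for Cxcr4 (adjusted p = 0.173). Without the ZnF1 library of fraction C, Cxcr4 (0.94, limma adjusted p = 0.0199) and Ccr2 (-1.90, adjusted p = 0.0372) passed, 2 of 6 beside 24.6% of genes. Without the ZnF1 library of fraction B, which leaves ZnF1 with the 1 library whose granulocyte and monocyte sum was 44118.8 RPKM, 4 of 6 passed beside 37.5% of genes: Ccr2 (-4.82, limma adjusted p = 0.00289), Cxcr5 (-1.65, adjusted p = 0.00915), Ccr9 (-2.86, adjusted p = 0.0105) and Cxcr4 (0.58, adjusted p = 0.0495). Scaling to the B-lineage markers, under which Cxcr4 in fraction C turned to -0.15, moved the median of all genes between the mutants in that fraction to -0.57 (0.13 as deposited).

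Across fractions, C against B, 0 of 6 receptors were at least 2-fold higher in all 3 genotypes and 0 of 6 at least 2-fold lower, beside 0.0274% of all genes in each direction. S1pr1 passed 2-fold in ZnF1 and wt and missed it in ZnF4. Its limma estimate was -0.98 with a standard error of 0.16 (unadjusted p = 0.00238, adjusted p = 0.854). By that fit 0 of 6 receptors and 0 of 10943 genes (0%) passed, with 1 of 6 receptors and 511 genes at an unadjusted p under 0.05, and over the alternatives the adjusted p of S1pr1 ranged between 0.0796 and 1. Cxcr4 differed between fractions by -0.18 in ZnF4, 0.10 in ZnF1 and -0.34 in wt, and Cxcr5 by -0.07, 0.96 and 0.33. Ccr7 differed by -0.43, -0.62 and 0.28, Ccr9 by -0.13, 0.81 and -1.31 and Ccr2 by 0.55, 2.87 and -0.65. Direction thus varied by genotype for all receptors but S1pr1.

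The genes around the receptors were taken from 9 lists of ligands, other receptors, signalling, motility and adhesion genes, together 131 genes, of which 130 were in the table and 103 passed the expression filter. At least 2-fold in both fractions, ZnF4 was above wt in 3 of 103 (2.91%, beside 2.59% of all genes) and below wt in 12 of 103 (11.7%, beside 4.73%). The median difference of the 103 was -0.08 in fraction C and -0.30 in fraction B, against -0.05 and -0.09 over all genes. For ZnF1 against wt, 1 of 103, Coro1a, was higher (0.971%, beside 0.758%) and 0 of 103 lower, beside 0.804%. The medians of the 103 were 0.63 in fraction C and 0.04 in fraction B, against -0.16 and 0.04 over all genes. For fraction C against fraction B 0 of 103 were 2-fold apart in all 3 genotypes, beside 0.0274% of all genes in each direction.

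Ligands of the receptors were low or listed at 0. Cxcl13, Ccl19, Ccl21a, Ccl21b, Ccl7, Ccl8 and Ccl12 were listed at 0 in all 6 libraries, while Cxcl12 had 0.1 to 3.9 RPKM and Ccl25 0.6 to 5.6 RPKM. Between ZnF4 and wt 0 of the 3 ligands that passed the filter were 2-fold apart in both fractions, beside 2.59% of all genes higher and 4.73% lower. Among other chemokine receptors 2 of 7 lay 2-fold or more below wt in both ZnF4 libraries, beside 4.73% of all genes, and 0 of 7 above, beside 2.59%. Cxcr3, which reads interferon-induced chemokines, had 0.2 and 0.1 RPKM in fractions C and B of ZnF4, 7.0 and 3.1 RPKM in ZnF1 and 1.5 and 3.5 RPKM in wt. Cx3cr1, the receptor of fractalkine, had 0.2 and 0 RPKM in ZnF4, 6.9 and 0.6 RPKM in ZnF1 and 1.8 and 1.8 RPKM in wt. Both were at 0.2 RPKM or less in ZnF4, like Ccr9.

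Of 12 lipid and orphan guidance receptors that passed the filter, 1 was at least 2-fold higher in ZnF4 than in wt in both fractions, beside 2.59% of all genes. As far lower were 2 of 12, beside 4.73%. S1pr3, a relative of S1pr1, had 2.1 and 5.8 RPKM in fractions C and B of ZnF4, 1.4 and 0.7 RPKM in ZnF1 and 0.3 and 0.9 RPKM in wt. Gpr132 was lower, with 3.6 and 3.8 RPKM in ZnF4, 16.6 and 23.7 RPKM in ZnF1 and 11.8 and 15.3 RPKM in wt, and Lpar6, a receptor of lysophosphatidic acid, was 2.30-fold and 2.61-fold lower. S1pr4, the S1P receptor with the highest level, had 27.9 and 44.3 RPKM in ZnF4, 47.4 and 84.8 RPKM in ZnF1 and 24.7 and 33.4 RPKM in wt. Of 9 listed genes of S1P production and export 8 passed the filter. Between ZnF4 and wt 0 of these were 2-fold apart in both fractions, beside 2.59% of all genes higher and 4.73% lower. With so few genes this count says little. The entry Lpp encodes a LIM-domain protein and does not belong to these enzymes.

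Regulators of S1pr1 included 1 of 10 at least 2-fold higher in both fractions of ZnF4 than in wt, beside 2.59% of all genes. As far lower was 1 of 10, beside 4.73%. Klf2, a transcription factor that switches on S1pr1 in lymphocytes, had 27.9 and 65.7 RPKM in fractions C and B of ZnF4, 31.6 and 29.4 RPKM in ZnF1 and 8.1 and 20.2 RPKM in wt. ZnF4 was thus 3.18-fold and 3.15-fold above wt (limma with all 6 libraries, adjusted p = 0.163). The difference was larger than the 1.47-fold and 1.09-fold of S1pr1. Cd69, which pulls S1pr1 off the cell surface, had 3.4 and 6.1 RPKM in ZnF4, 21.1 and 22.2 RPKM in ZnF1 and 8.0 and 14.4 RPKM in wt, and so was 2.05-fold and 2.17-fold lower in ZnF4 than in wt. Surface S1pr1 was not measured. Foxo1, another transcription factor of this circuit, had 35.9 and 54.0 RPKM in ZnF4, 33.1 and 70.0 RPKM in ZnF1 and 37.6 and 57.8 RPKM in wt. It was lower in fraction C than in fraction B in each genotype, as were S1pr1 and Adrbk1, the highest gene of this list. Klf2 was not, being higher in fraction C in ZnF1. Of the 10 regulators, 3 were higher in fraction C than in fraction B in ZnF4, 6 in ZnF1 and 1 in wt.

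Few signalling genes below the receptors were 2-fold from wt. Of 19 G-protein pathway genes 0 were at least 2-fold apart between ZnF4 and wt in both fractions, beside 2.59% of all genes higher and 4.73% lower. Gnai2, the inhibitory G-protein subunit that chemokine receptors act through, had 271.6 and 236.4 RPKM in ZnF4, 483.6 and 333.3 RPKM in ZnF1 and 257.6 and 270.9 RPKM in wt. Of 6 RGS genes, whose products switch such G proteins off, Rgs2 was higher, with 104.8 and 135.5 RPKM in fractions C and B of ZnF4, 88.9 and 44.7 RPKM in ZnF1 and 32.6 and 57.2 RPKM in wt. Rgs18, known from platelets and myeloid cells, was lower, with 1.0 and 1.1 RPKM in ZnF4, 21.7 and 4.4 RPKM in ZnF1 and 5.8 and 7.5 RPKM in wt.

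Of 13 adhesion genes 4 were at least 2-fold below wt in both ZnF4 libraries, beside 4.73% of all genes, and 0 of 13 above, beside 2.59%. Markers of other blood cells were below wt to that extent too: 9 of 10 of natural killer cells, 5 of 14 of plasmacytoid dendritic cells, 5 of 21 of granulocytes and monocytes, 4 of 15 of erythroid cells and 2 of 10 of the T lineage. Markers near 0 in ZnF4 passed the filter through the other libraries, so these shares are partly fixed by it. The part of such cells in the values of the pathway genes was not tested. Itgal, the alpha chain of LFA-1, had 11 and 7.1 RPKM in fractions C and B of ZnF4, 83.9 and 47.6 RPKM in ZnF1 and 26.6 and 39.9 RPKM in wt. Itga4 and Itgb7, which pair as the integrin of gut homing, were both lower in ZnF4 than in wt, Itga4 2.40-fold and 2.22-fold and Itgb7 2.83-fold and 8.33-fold. Itga5, the fibronectin receptor chain, was 2.41-fold and 3.27-fold lower. Itgb7 peaked at 60.6 RPKM in the ZnF1 library of fraction C, as Ccr2 did.

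Of 25 motility genes 2 were at least 2-fold lower in both fractions of ZnF4 than in wt, beside 4.73% of all genes, and 0 were higher, beside 2.59%. Rassf5, which links Rap1 to integrins, had 16.0 and 15.7 RPKM in fractions C and B of ZnF4, 69.7 and 59.3 RPKM in ZnF1 and 46.2 and 48.1 RPKM in wt. Rasgrp2, which activates Rap1, had 61.0 and 66.8 RPKM in ZnF4, 144.4 and 305.7 RPKM in ZnF1 and 126.6 and 138.7 RPKM in wt. Coro1a, an actin regulator of lymphocyte migration, was set apart by ZnF1, with 479.8 and 477.1 RPKM in ZnF4, 1011.8 and 1057.9 RPKM in ZnF1 and 442.2 and 470.9 RPKM in wt (ZnF1 against wt 2.29-fold and 2.24-fold, limma adjusted p = 0.44).

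In the 6-library fit pathway genes passed the test between the mutants alone. For ZnF4 against ZnF1, 17 of 103 pathway genes were at least 2-fold lower in both fractions (16.5%, beside 5.45% of all genes). As far higher were 0 of 103, beside 3.11%. Medians of the 103 were -0.58 in fraction C and -0.34 in fraction B, against 0.13 and -0.17 over all genes. The ZnF1 library of fraction C is the one with the granulocyte and monocyte sum of 44118.8 RPKM. Some of the 17 peaked in it, such as Cxcr2 (88.5 RPKM, with 3.6 in ZnF1 fraction B). Others did not, such as Gpr132 (16.6 and 23.7 RPKM). The part of that RNA in these differences was not tested. Gpr132 fell by 2.15 on the log2 scale with a standard error of 0.20 (limma, adjusted p = 0.0377), Rassf5 fell by 1.95 with 0.17 (adjusted p = 0.0377) and Cd69 fell by 2.02 with 0.25 (adjusted p = 0.0487), 3 of 103 beside 1.82% of genes. Without the ZnF4 library of fraction C their adjusted p lay between 0.268 and 0.355, and without the ZnF4 library of fraction B at 0.458. Cd69 also missed the threshold without the wt library of fraction C (0.0576) or B (0.0554), and all 3 missed it when unfiltered genes were tested too (0.0871 to 0.0973). Scaling to the B-lineage markers ended the calls of Rassf5 (0.0671) and Cd69 (0.0937), the 4 mutant libraries alone those of Gpr132 (0.0521) and Cd69 (0.0612), and a pseudocount of 4 or upper quartile scaling that of Cd69 (0.0578 and 0.0510). For ZnF4 against wt and ZnF1 against wt 0 of 103 passed in the 6-library fit, beside 0.0274% of all genes in each. At an unadjusted p under 0.05 in that limma fit were 28 and 13 of 103, beside 1930 and 1018 of 10943 genes. For ZnF4 against wt 43 of 103 passed with the 4 libraries of ZnF4 and wt alone (41.7%, beside 31.9% of all genes). The fits without 1 ZnF1 library rest on the spread of these same 4 libraries and are no separate checks. The 15 genes at least 2-fold apart in both fractions were picked by the differences that this contrast averages, so the fit is no separate test of them. For ZnF1 against wt 50 of 103 passed without the ZnF1 library of fraction B (48.5%, beside 37.6% of all genes) and 0 of 103 without that of fraction C. For ZnF4 against ZnF1 56 of 103 passed without the ZnF1 library of fraction B (54.4%, beside 37.5%) and 32 of 103 without that of fraction C (31.1%, beside 24.6%).

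The genes with the profile most like each receptor over the 6 libraries were sought by the smallest root mean square difference between mean-centred log2(RPKM + 1) values, for the 5 receptors that spanned at least 2-fold. Among the genes reported here, Ccr9 was closest to Pacsin1 (0.20), Cxcr3 (0.21) and Lag3 (0.22), all of them at 0.3 RPKM or less in ZnF4. Ccr2 was closest to Clec12a (0.10), a lectin of myeloid cells with 2.2 and 1.4 RPKM in fractions C and B of ZnF4, 75.9 and 7.9 RPKM in ZnF1 and 6.7 and 12.0 RPKM in wt, followed by Sirpa (0.20) and Tnfrsf1a (0.22). Cxcr5 was closest to Bex6 (0.18), Eya2 (0.19) and Klra12 (0.26). Cxcr4 was closest to Akap8l (0.06), Aim1 (0.07) and Casp6 (0.08), and S1pr1 to Zcchc18 (0.11), Pde4c (0.14) and Il21r (0.17). Likeness over 6 libraries is a description of these libraries only.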

How the data were processed

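The authors deposited RPKM per RefSeq transcript, per the file headers, rounded to 0.1. TopHat, bedtools and build mm9 are named without versions, per the submitters' processing notes. The sources used here do not state which reads were counted, whether strand was used or how shared reads were handled. Groups were taken from the sample titles. Of 26532 entries 1 had no gene name, and 0 columns belonged to other samples. For 3305 symbols with more than 1 transcript the one with the highest mean was taken.

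Depth is unknown: low values matched whole reads in 16.3% to 51.0% of cases per library, where chance gives 6.8% to 40.7%, so no count test was run. RPKM sums per library ran between 262648.6 and 355822.4, and 10342 to 10947 genes had at least 1 RPKM.

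Differences are log2(RPKM + 1), with 1 as the pseudocount, for genes averaging at least 1 RPKM. That mean is over all 6 libraries, so a gene near 0 in ZnF4 passes through the other libraries, which favours calls of lower in ZnF4. limma 3.58.1 (R 4.3.3, lmFit and eBayes with trend) was fitted to all 6 libraries with genotype and fraction, tested two-sided with Benjamini-Hochberg adjustment over 10943 genes at 0.05, and was tested on simulated data. Its p-values rest on how genotype differences vary between the 2 fractions, as no group has a replicate library. They do not measure variation between animals or between replicate libraries. Tables were made in Python 3.11.15 with pandas 2.3.3. Alternatives were other pseudocounts, filters, scalings, summed transcripts and leaving out libraries. Named genes were all receptors, list members at least 2-fold apart in every pair, up to 2 more per list by level, and the 3 genes most like each receptor, with marker and sex-linked genes as checks. Foxo1 and the ligands listed at 0 were named outside these rules. Members and lists were chosen with earlier results of these data known. Promoter letters came from RefSeq tables and carry no link to the mm9 values. Some genes of the lists are not reported here and were left out of the list counts, marker sums and likeness.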

Additional observations from a re-analysis of the deposited data

Results flagged for a closer look

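Ccr9 and Ccr2 differed in opposite directions under the same contrast. Ccr9 differed between ZnF1 and wt by 1.5 on the log2(RPKM + 1) scale in fraction C and by -0.62 in fraction B. Between fractions C and B, Ccr9 differed by 0.81 in ZnF1 and by -1.31 in wt. Ccr2 differed between fractions C and B by 0.55 in ZnF4 and 2.87 in ZnF1, and by -0.65 in wt. Each value is 1 library against 1, and the difference between them was not tested. The values 1.5, 0.81 and 2.87 come from the ZnF1 library of fraction C, whose granulocyte and monocyte markers summed to 44118.8 RPKM, and the part of that RNA in them was not tested.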

How the results depend on the processing

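No paired analysis was possible because each group has 1 library and the labels carry no replicate numbers; the fraction that libraries share was a term of the fit as reported. Receptors at least 2-fold lower numbered 1 for ZnF4 against wt (3 as reported) and 1 for ZnF4 against ZnF1 (2 as reported) with a pseudocount of 4, and again 1 and 1 with a filter at 5 RPKM, which 4 receptors pass. Leaving out each library in turn gave 0 to 2 for ZnF1 against wt and 0 to 1 for C against B. The limma calls ranged from 0 to 4 for ZnF4 against wt (4 with its own 4 libraries alone), 0 to 1 for ZnF1 against wt and 0 to 4 for ZnF4 against ZnF1. Scaling to B-lineage markers turned Cxcr4 in ZnF1 against wt to 0.212, Ccr7 in ZnF4 against ZnF1 to -0.198, and, for C against B, Cxcr4 to 0.158, Ccr7 to 0.029 and Ccr9 to 0.078. With 4 libraries only, Ccr2 in C against B was -0.047. Without 1 library, log2 estimates spanned -0.214 to 0.591 for Ccr7 in ZnF4 against wt. They spanned -0.184 to 0.176 for Cxcr4, -0.238 to 0.567 for Ccr7 and -0.389 to 1.264 for Ccr9 in ZnF1 against wt. They spanned -0.252 to 0.300 for Ccr7 and -0.328 to 0.082 for S1pr1 in ZnF4 against ZnF1, and -0.717 to 0.344 for Ccr9 and -0.047 to 1.709 for Ccr2 in C against B. The cause of these turns was not tested. Of the limma estimates of single receptors under alternatives, 289 kept their direction and side of the threshold, 20 turned and 19 passed it. Depth is unknown, and values of 0.1 or 0.2 RPKM are 1 or 2 steps of the rounding, so folds of Ccr9 in ZnF4 are coarse.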
